A study of Mus musculus with 12 samples.

Results

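The collagen genes of the mouse were followed in diaphragm and gastrocnemius muscle of *Cox6a2*-/- (KO) and WT mice. Every probe set whose single gene symbol has the collagen form (*Col*, a chain type, *a*, a chain number) was taken, and the brightest one stood for its gene. This gave 44 collagens among 19938 measured genes, from 46 probe sets, since *Col6a5* and *Col6a6* have 2 probe sets each. By the class of their protein, 11 are fibrillar, 8 belong to basement membranes (the type IV chains, *Col15a1* and *Col18a1*) and 25 are others, such as type VI collagen and the collagens that sit on fibril surfaces.

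Collagens are secreted proteins whose chains wind around each other into a helix. In muscle, fibrillar types I and III form the connective tissue sheaths around fibers and fascicles, type IV forms the network of the basement membrane around every fiber and capillary, and type VI links this membrane to the fibrils outside it. They are made mainly by fibroblasts, and in part by endothelial and muscle cells, and are folded, trimmed and crosslinked by enzymes with genes of their own.

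The mice were males of strain C57Bl6 aged 10 to 12 weeks, and each group of 3 arrays held 1 genotype and 1 muscle: WT diaphragm, KO diaphragm, WT gastrocnemius and KO gastrocnemius, 12 mouse Gene 1.0 ST arrays in all. The KO mice lack *Cox6a2*, the gene of a muscle subunit of cytochrome *c* oxidase in the respiratory chain, and the WT controls were C57BL/6J mice from a breeder, matched for age and sex and not described as littermates. No agent was given, and the chow was a regular one unless a high-fat diet was studied. Values are log2 signals after RMA, which corrects the background, normalizes the arrays to each other and summarises the probes of a transcript, so that a difference of 1 is a 2-fold change. A gene is said to be called, or to have risen or fallen, where its Benjamini-Hochberg adjusted p over all genes was under 0.05 in 1 limma model of the 4 groups. The labels call the arrays biological replicates without tying an array to a mouse, so that p-values measure the spread between these arrays, which may be in part technical, and precision is limited by 3 arrays a group.

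The arrays labelled WT diaphragm went against their label. *Cox6a2* followed the genotype, at 11.89 ± 0.16 (SD, n = 3) on these arrays and 11.74 ± 0.096 in WT gastrocnemius, against 6.89 ± 0.16 for the KO diaphragm and 6.93 ± 0.23 for the KO gastrocnemius arrays. The homeobox gene *Hoxc10* is a mark of hindlimb position, and its mean was 8.68 under that label, as in WT and KO gastrocnemius (8.44 and 8.53), and at 4.18 in KO diaphragm. Mesothelial cells line the surface of the diaphragm, and their marker *Upk3b* had group means of 9.31 for KO diaphragm but 5.16 to 5.49 elsewhere. Over the 19938 genes the arrays labelled WT diaphragm correlated at 0.989 to 0.992 with WT gastrocnemius and at 0.963 to 0.975 with KO diaphragm. In any comparison of KO diaphragm with these arrays, an effect of genotype and a difference between muscles therefore cannot be told apart. Most such values of collagens are given beside KO diaphragm minus KO gastrocnemius, which uses no WT array but compares muscles, not genotypes, and shares the KO diaphragm arrays. For the other lists, counts are given for both comparisons, but most single genes only against the arrays labelled WT diaphragm.

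A second array stood apart for the collagens themselves. WT gastrocnemius replicate 1 was the highest of the 12 arrays for 19 of 44 collagens (43.2%), against 11.4% of all genes. The mean log2 signal over the 44 collagens was 7.25 on this array, 6.94 and 6.995 on the other WT gastrocnemius arrays and 6.91 to 6.97 in KO gastrocnemius. Its summed linear signal of 11 fibroblast markers was 6647, against 5595 and 5161 on the other WT gastrocnemius arrays, and its part in the collagen values was not tested. The main collagen counts, medians and differences in gastrocnemius are given with and without it.

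**Figure D1:**
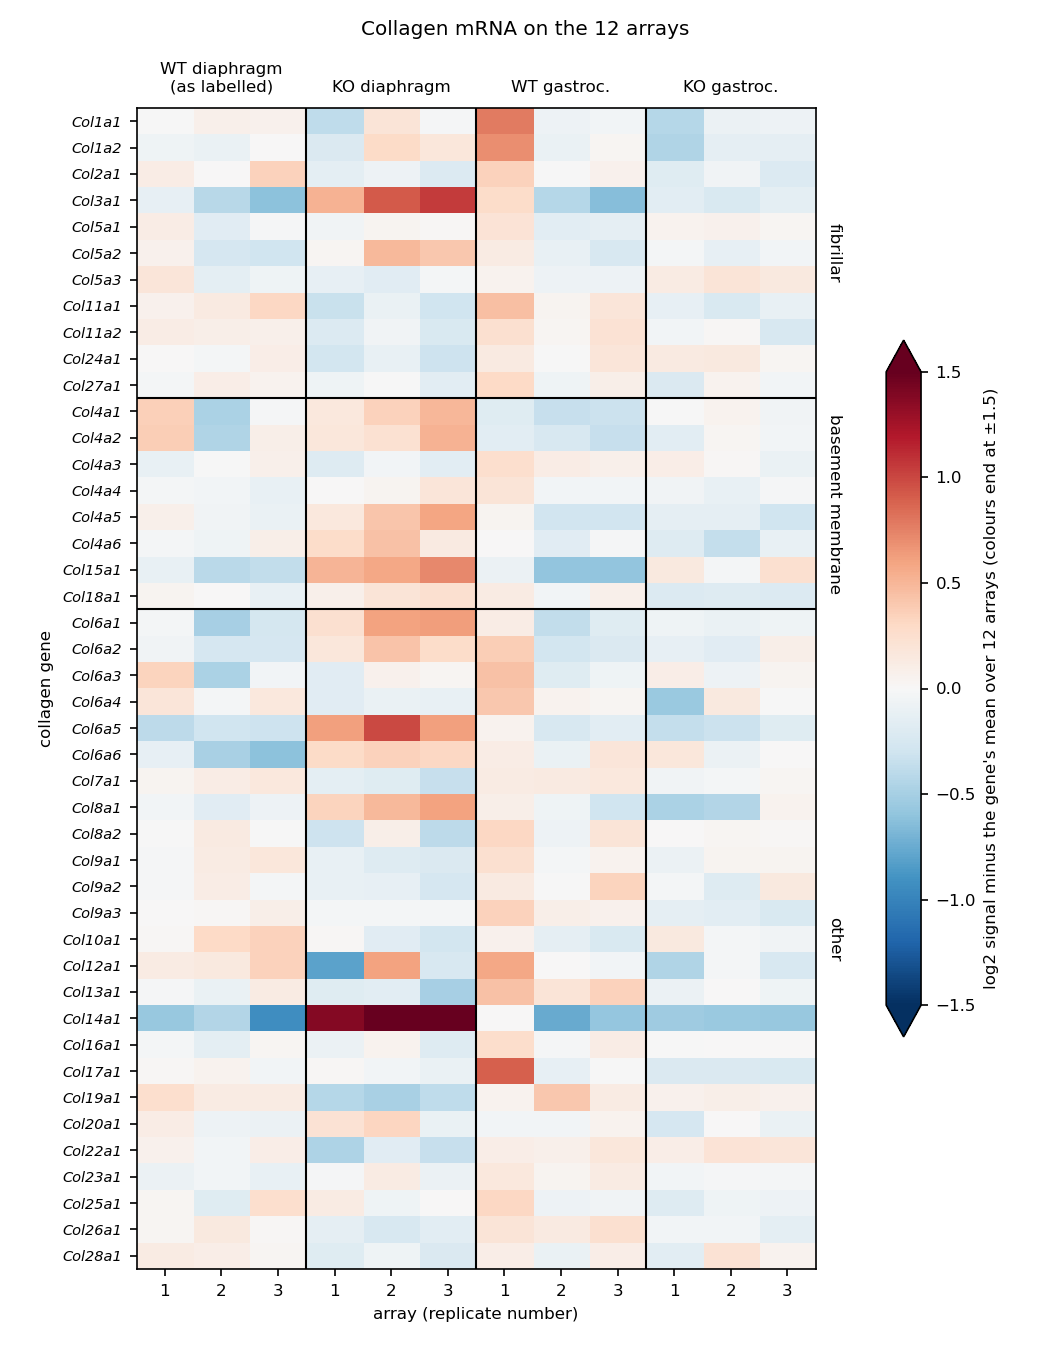
Log2 RMA signal of each of 44 collagens (rows, by class) on each of the 12 arrays (columns, 3 per group), as the difference from that gene's mean over all arrays; red is above and blue below the mean. The KO diaphragm arrays stand out in both directions, and WT gastrocnemius replicate 1 is the highest of the 12 arrays for 19 of the 44 collagens.

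The arrays show 2 patterns in these genes. First, the 3 KO diaphragm arrays lay above the other 9 arrays for 9 collagens (*Col3a1*, *Col4a5*, *Col4a6*, *Col15a1*, *Col6a1*, *Col6a5*, *Col6a6*, *Col8a1* and *Col14a1*), and below them for 6 (*Col24a1*, *Col7a1*, *Col9a1*, *Col13a1*, *Col19a1* and *Col22a1*). These are 20.5% and 13.6% of the collagens, where 14.4% and 9.02% of all genes lay so. Second, the spread within groups was largest for 3 chains of fibrils and their surfaces: the residual SD was 0.41 for *Col12a1*, a collagen of fibril surfaces singled out here after its values were seen, and 0.30 for *Col3a1* and *Col1a1*, beside a median of 0.140 over the collagens. The median over all genes was 0.138.

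The comparison of KO with WT gastrocnemius asks what the loss of *Cox6a2* does to collagen mRNA in a limb muscle, and no labelled WT diaphragm array enters its difference. By limma, 0 collagens were called in either direction, where 0.406% of all genes were called higher and 0.186% lower. Before adjustment, with p under 0.05, 1 collagen was higher (*Col15a1*; 2.27%, against 8.11% of all genes) and 9 were lower (20.5%, against 8.34% of all genes). The methods' t-test gave 3 higher and 7 lower at that unadjusted threshold, and 0 of either after adjustment. Without WT gastrocnemius replicate 1, 2 were higher and 5 lower before adjustment (4.55% and 11.4%, against 6.63% and 5.46% of all genes), and limma called 1 higher, *Col15a1*, and 0 lower. The 9 were the fibrillar chains *Col1a2*, *Col2a1*, *Col11a1* and *Col11a2*, then *Col18a1* of the basement membrane and *Col9a3*, *Col13a1*, *Col17a1* and *Col26a1* among the others.

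*Col1a1* and *Col1a2* encode the chains of type I collagen, the main fibril protein of tendon and muscle sheaths. The log2 signal of *Col1a1* was 11.64, 10.79 and 10.82 in WT gastrocnemius and 10.43, 10.78 and 10.78 in KO gastrocnemius. That of *Col1a2* was 11.29, 10.49 and 10.62 in WT and 10.14, 10.46 and 10.45 in KO gastrocnemius. For both chains 1 WT array lay far above and 1 KO array below the other arrays of its group. The groups did not overlap for either chain, although the gap for *Col1a1* was under 0.01. The log2 difference was -0.42 for *Col1a1* (standard error 0.20, adjusted p = 0.311) and -0.45 for *Col1a2* (standard error 0.18, adjusted p = 0.235). Without WT gastrocnemius replicate 1 they were -0.14 and -0.21.

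*Col15a1* encodes type XV collagen, which sits at the outer face of the basement membrane of fibers and capillaries, and was the collagen with the largest positive difference here. Its log2 signal was 8.08, 7.57 and 7.58 in WT gastrocnemius and 8.32, 8.14 and 8.41 in KO gastrocnemius, so that the groups did not overlap. The difference was 0.55 (95% confidence interval 0.26 to 0.84, standard error 0.14, adjusted p = 0.0869), which did not pass. It passed without WT gastrocnemius replicate 1 (0.71, adjusted p = 0.0311) and with each array centred on its median (0.61, adjusted p = 0.0400). Over the alternatives and arrays left out, its adjusted p ranged from 0.0311 to 0.350.

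By sign, 33 of 44 collagens (75%) were negative in KO minus WT gastrocnemius, against 53.5% of all genes, with a median of -0.12 against -0.01. Leaving out WT gastrocnemius replicate 1 gave 28 of 44 negative (63.6%, against 51.4% of all genes) and a median of -0.06. Leaving out replicate 2 gave 37 (84.1%, against 54.1% of all genes) and -0.17. With each array centred on its median, 28 were negative, with a median of -0.06 against 0.04 for all genes. The medians were -0.18 over the fibrillar, -0.06 over the basement membrane and -0.12 over the other collagens. Without WT gastrocnemius replicate 1 they were -0.09, 0.04 and -0.09, so that the sign turned for the basement membrane collagens, whose median was 0.00 after median centring and 0.01 after quantile normalization. *Col4a1* (0.28, adjusted p = 0.393) and *Col4a2* (0.19, adjusted p = 0.589), the common chains of type IV collagen, were positive, while *Col18a1*, which carries endostatin at its end, was at -0.25 (adjusted p = 0.168). Without WT gastrocnemius replicate 1 these 3 were at 0.34, 0.23 and -0.22, with adjusted p of 0.492, 0.665 and 0.375.

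Between KO diaphragm and the arrays labelled WT diaphragm, 10 collagens rose and 7 fell, and 27 were not called. Of all genes 16.3% were called higher and 11.2% lower in this comparison, so that the shares of the collagens, 22.7% and 15.9%, lay not far above the background. The 10 were *Col3a1* and *Col5a2* of the fibrils, *Col4a5* and *Col15a1* of the basement membrane, *Col6a1*, *Col6a2*, *Col6a5* and *Col6a6* of type VI, and *Col8a1* and *Col14a1*. The 7 were *Col11a1* and *Col24a1* of the fibrils and *Col7a1*, *Col10a1*, *Col19a1*, *Col22a1* and *Col26a1*. After centring each array on its median the counts were 10 higher and 12 lower, and after quantile normalization 8 higher and 13 lower, so that the balance of directions rested on the scaling. Of all genes 65.6% were negative after median centring and 56.7% after quantile normalization, against 59.1% and 61.4% of the collagens. The shares of all genes called under these scalings were not counted. By the methods' t-test 5 were higher and 1 lower after adjustment, with no count over all genes to set beside them.

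In KO diaphragm minus KO gastrocnemius, 9 collagens were higher and 3 lower, or 20.5% and 6.82%, where 17.7% of all genes were called higher and 11.2% lower. The 9 were *Col3a1*, *Col4a5*, *Col4a6*, *Col15a1*, *Col18a1*, *Col6a1*, *Col6a5*, *Col8a1* and *Col14a1*, and the 3 were *Col24a1*, *Col19a1* and *Col22a1*. With median centring the counts were 9 higher and 11 lower, and with quantile normalization 9 and 10. The negative shares were then 65.5% and 53.9% of all genes, against 52.3% and 54.5% of the collagens. Here too, calls over all genes under these scalings were not counted. As RNA came from whole muscle, more or fewer cells of a type and more or less RNA per cell cannot be told apart in any of these values.

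**Figure D2:**
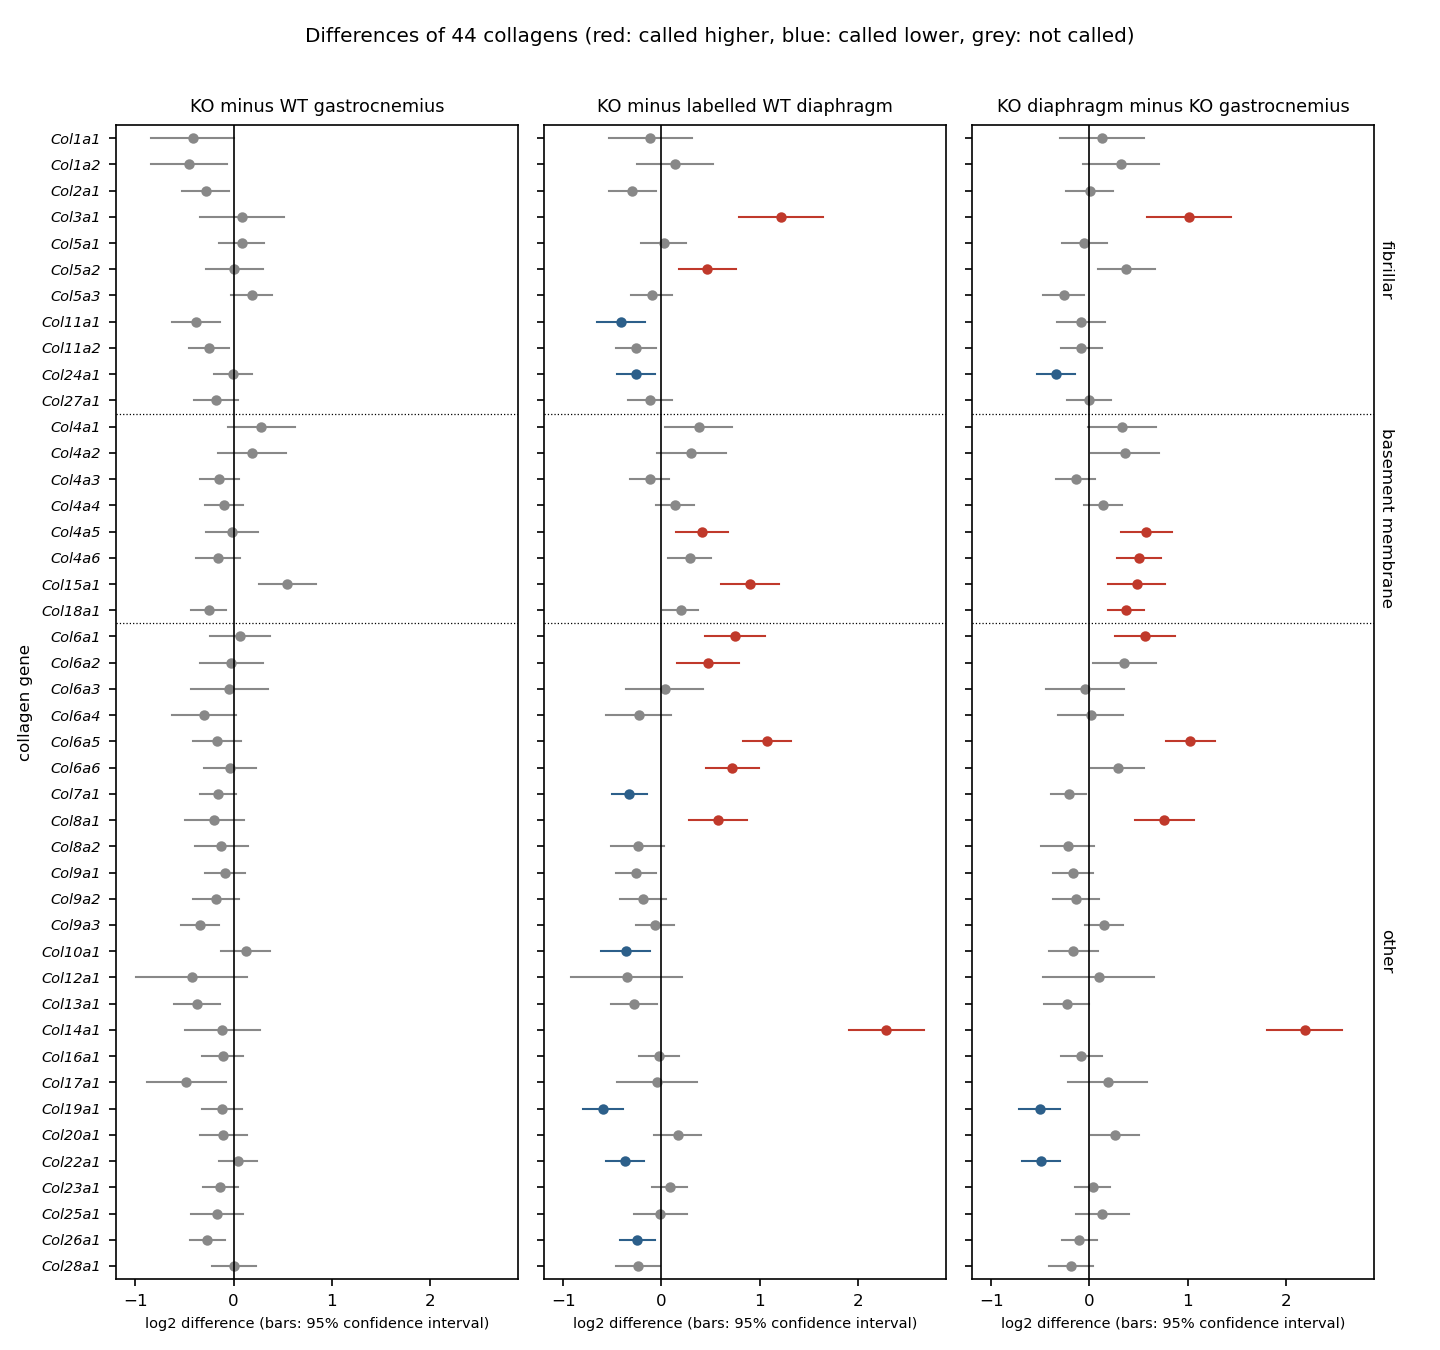
Log2 differences of 44 collagens (rows, by class) in KO minus WT gastrocnemius, KO minus labelled WT diaphragm, and KO diaphragm minus KO gastrocnemius; points are the differences and bars their 95% confidence intervals, red where called higher and blue where called lower. No collagen is called in gastrocnemius, while *Col14a1* lies at 2.29 and 2.19 in the panels with KO diaphragm, which share those arrays.

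Among the fibrillar collagens, type III stood apart from type I. *Col3a1* encodes the chain of type III collagen, which forms the fine fibrils of stretchable tissues, and it was at 10.18, 10.57 and 10.70 in KO diaphragm. It was at 9.52, 9.24 and 9.03 on the labelled WT diaphragm arrays, at 9.93, 9.22 and 9.02 in WT gastrocnemius and at 9.49, 9.42 and 9.50 in KO gastrocnemius. All KO diaphragm arrays were higher than the other 9, the nearest of which was WT gastrocnemius replicate 1. *Col3a1* rose by 1.22 against the arrays labelled WT diaphragm (2.33-fold, standard error 0.20, adjusted p = 0.000379) and was higher by 1.01 than in KO gastrocnemius (adjusted p = 0.00146).

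The type I chains showed no such gap. *Col1a1* was at 10.48, 11.06 and 10.85 in KO diaphragm and at 10.86, 10.94 and 10.92 on the labelled WT diaphragm arrays, and *Col1a2* at 10.38, 10.88 and 10.76 against 10.53, 10.49 and 10.60. For both, the groups overlapped. The difference was -0.11 for *Col1a1* (95% confidence interval -0.54 to 0.31, adjusted p = 0.703) and 0.13 for *Col1a2* (-0.25 to 0.52, adjusted p = 0.615). Against KO gastrocnemius they were at 0.13 (adjusted p = 0.677) and 0.32 (adjusted p = 0.208).

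Within an array, the signal of *Col3a1* minus that of *Col1a1* was -0.31 ± 0.17 (SD, n = 3) in KO diaphragm, against -1.64 ± 0.28 on the labelled WT diaphragm arrays, -1.69 ± 0.11 in WT and -1.19 ± 0.22 in KO gastrocnemius. Only shifts of this value between groups can be read, since probe sets differ in brightness. The KO diaphragm arrays spanned -0.48 to -0.15 and the other 9 arrays -1.89 to -0.94. In gastrocnemius this value was also higher in KO, from -1.36 to -0.94, than in WT, from -1.80 to -1.57, without overlap. The shift is thus not particular to KO diaphragm, where it was larger. *Col1a2* minus *Col1a1* moved by less, from -0.37 ± 0.074 (SD, n = 3) on the labelled WT diaphragm arrays to -0.12 ± 0.046 in KO diaphragm.

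Type V chains lie inside the type I fibrils and set their width. *Col5a2* rose by 0.47 against labelled WT diaphragm (standard error 0.13, adjusted p = 0.0186), a call that was lost without replicate 2 or 3 of either group (adjusted p = 0.0625 to 0.0864), whereas *Col5a1* was at 0.02 (adjusted p = 0.907). Against KO gastrocnemius *Col5a2* was at 0.37 (adjusted p = 0.0509) and *Col5a1* at -0.05 (adjusted p = 0.765). *Col5a2* minus *Col5a1* within an array was 0.15 ± 0.20 (SD, n = 3) in KO diaphragm and between -0.30 and -0.21 as the mean of each other group. *Col3a1* and *Col5a2*, which both rose, are neighbours in the RefSeq gene order.

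Among the rarer fibrillar chains, 2 fell in KO diaphragm against the arrays labelled WT diaphragm. *Col11a1*, a type XI chain best known from cartilage, fell by 0.41 (standard error 0.11, adjusted p = 0.0147), and *Col24a1* by 0.26 (adjusted p = 0.0460). *Col11a1* was at 5.98, 6.22 and 6.02 in KO diaphragm and at 6.38, 6.45 and 6.62 on the labelled WT diaphragm arrays, but at 6.19, 6.08 and 6.20 in KO gastrocnemius, which it overlapped. Both calls lay near the threshold. With 1 array left out at a time, *Col11a1* was called in 9 of 12 fits, and where it was lost, without the array labelled WT diaphragm replicate 3 or KO diaphragm replicates 1 or 3, it was at -0.34 to -0.38 (adjusted p = 0.0504 to 0.0694). *Col24a1* was called in 3 of 12 such fits, and it was not called in a fit of only these 2 groups, with the same difference (adjusted p = 0.0775). Against KO gastrocnemius *Col24a1* was at -0.34 (adjusted p = 0.0117) and *Col11a1* at -0.08.

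Over the 11 fibrillar collagens the median log2 difference was -0.11 in KO minus labelled WT diaphragm, with 2 called higher, 2 lower and 7 not called, and -0.01 in KO diaphragm minus KO gastrocnemius, with 1 higher, 1 lower and 9 not called. The medians of all genes were -0.04 and 0.02. The class shares were 18.2% higher and 18.2% lower, then 9.09% and 9.09%. Of all genes 16.3% were called higher and 11.2% lower in the first comparison, and 17.7% and 11.2% in the second.

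The start regions of *Col3a1* and of *Col1a2* are shown because these genes take part in the same fibrils and differed in KO diaphragm. Each window holds 250 bases before and 50 after the RefSeq start (build GRCm38.p6), read 5′ to 3′ on the strand of the gene. Capitals mark matches, on either strand, to the TATA box (TATAAA), the CCAAT box (CCAAT), the GC box (GGGCGG) and the SMAD box (CAGAC), the motif of the factors downstream of TGF-beta.
*Col3a1* (chr1:45311288-45311587, plus strand): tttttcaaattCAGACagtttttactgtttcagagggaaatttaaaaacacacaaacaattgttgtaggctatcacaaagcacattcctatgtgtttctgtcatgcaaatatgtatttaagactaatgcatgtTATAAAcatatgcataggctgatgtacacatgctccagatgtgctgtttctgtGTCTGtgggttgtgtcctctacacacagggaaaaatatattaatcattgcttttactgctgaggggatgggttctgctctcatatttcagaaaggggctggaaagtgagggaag
*Col1a2* (chr6:4505368-4505667, plus strand): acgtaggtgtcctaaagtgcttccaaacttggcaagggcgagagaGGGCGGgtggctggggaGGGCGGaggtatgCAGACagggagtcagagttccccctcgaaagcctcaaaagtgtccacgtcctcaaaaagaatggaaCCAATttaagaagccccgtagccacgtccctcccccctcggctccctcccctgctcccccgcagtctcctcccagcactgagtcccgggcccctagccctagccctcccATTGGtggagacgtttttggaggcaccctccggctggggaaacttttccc

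The *Col3a1* window held 1 TATAAA and 2 CAGAC, and the *Col1a2* window 2 CCAAT, 2 GGGCGG and 1 CAGAC. Among all 32851 RefSeq windows of this length, TATAAA was found in 13.62%, CCAAT in 37.41%, GGGCGG in 35.66% and CAGAC in 49.59%. Among the 38 windows of the 35 collagens that had one, the shares were 13.16%, 34.21%, 60.53% and 52.63%. Such matches describe the letters only.

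The basement membrane collagens leaned to higher values in KO diaphragm: 7 of 8 were positive against the arrays labelled WT diaphragm, with a median of 0.30, and 7 of 8 against KO gastrocnemius, with a median of 0.37. Of all genes 56.8% and 47.3% were negative in these comparisons. In the first comparison 2 were called higher (*Col15a1* and *Col4a5*) and in the second 4 (*Col4a5*, *Col4a6*, *Col15a1* and *Col18a1*), and none was called lower in either. The higher ones are 25% and 50% of the class, where 16.3% and 17.7% of all genes were called higher. With median centring both medians stayed positive, at 0.22 and 0.24, where those of all genes were -0.12 and -0.11.

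*Col15a1* was at 8.67, 8.75 and 8.89 in KO diaphragm, against 8.05, 7.76 and 7.79 on the labelled WT diaphragm arrays. With the gastrocnemius values given above, its order was KO diaphragm, KO gastrocnemius, labelled WT diaphragm and WT gastrocnemius, the last 2 of which overlapped. It rose by 0.90 against the arrays labelled WT diaphragm (1.87-fold, standard error 0.14, adjusted p = 0.000190) and was higher by 0.48 than in KO gastrocnemius (adjusted p = 0.0149), where the call was lost without KO diaphragm replicate 3 or KO gastrocnemius replicate 2. The interaction of genotype with the muscle label was 0.35, which did not pass (adjusted p = 0.258).

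Type IV collagen exists as networks of different chains, *Col4a1* with *Col4a2* in nearly all basement membranes and *Col4a3* to *Col4a6* in some. *Col4a1* was at 8.77, 8.95 and 9.11 in KO diaphragm, at 8.97, 8.14 and 8.59 on the labelled WT diaphragm arrays, at 8.43, 8.27 and 8.29 in WT gastrocnemius and at 8.61, 8.66 and 8.56 in KO gastrocnemius. The arrays labelled WT diaphragm spread widely, from below all gastrocnemius arrays to within the range of KO diaphragm. Its difference was 0.38 against them (adjusted p = 0.0952) and 0.33 against KO gastrocnemius (adjusted p = 0.143), and for *Col4a2* the values were 0.31 (adjusted p = 0.182) and 0.36 (adjusted p = 0.115). Both passed in the first comparison when replicate 1 of the labelled WT diaphragm arrays was left out, *Col4a1* at 0.58 (adjusted p = 0.00781) and *Col4a2* at 0.49 (adjusted p = 0.0325).

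The pair moved together from array to array: *Col4a2* minus *Col4a1* within an array had means from -0.34 to -0.24 in the 4 groups and lay between -0.44 and -0.17 on single arrays. The genes are neighbours and are read in opposite directions from 1 shared start region. Their 300-base windows, shown for this reason, have 78 bases in common at chr8:11312777-11312854 of GRCm38.p6, given in capitals, each on its own strand.
*Col4a1* (chr8:11312777-11313076, minus strand): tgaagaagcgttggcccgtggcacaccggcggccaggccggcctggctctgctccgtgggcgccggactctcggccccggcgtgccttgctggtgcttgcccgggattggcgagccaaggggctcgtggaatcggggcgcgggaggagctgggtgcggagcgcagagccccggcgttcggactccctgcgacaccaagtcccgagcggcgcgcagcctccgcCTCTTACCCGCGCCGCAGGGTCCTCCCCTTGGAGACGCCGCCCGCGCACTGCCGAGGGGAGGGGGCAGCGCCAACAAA
*Col4a2* (chr8:11312555-11312854, plus strand): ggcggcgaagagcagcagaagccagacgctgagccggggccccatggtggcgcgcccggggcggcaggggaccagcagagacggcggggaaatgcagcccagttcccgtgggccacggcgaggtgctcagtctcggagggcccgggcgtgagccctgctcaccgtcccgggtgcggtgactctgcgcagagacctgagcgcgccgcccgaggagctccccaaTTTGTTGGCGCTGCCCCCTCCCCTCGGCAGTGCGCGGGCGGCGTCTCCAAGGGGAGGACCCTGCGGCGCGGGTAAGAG

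*Col4a5* rose by 0.41 against the arrays labelled WT diaphragm (standard error 0.12, adjusted p = 0.0216) and was higher by 0.58 than in KO gastrocnemius (adjusted p = 0.00246). The first of these calls was lost without replicate 2 or 3 of either group (adjusted p = 0.0562 to 0.103). Its KO diaphragm arrays, at 6.09, 6.35 and 6.53, lay above the other 9, which spanned 5.64 to 6.02. *Col4a6*, its neighbour in the gene order and partner in the same network, was higher than in KO gastrocnemius by 0.51 (adjusted p = 0.00185). The signal of *Col4a6* was low, with group means of 5.31 in KO gastrocnemius to 5.81 in KO diaphragm, below the median gene at 6.11. *Col18a1* was higher by 0.37 than in KO gastrocnemius (adjusted p = 0.00415) and was at 0.19 against the arrays labelled WT diaphragm (adjusted p = 0.105).

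**Figure D3:**
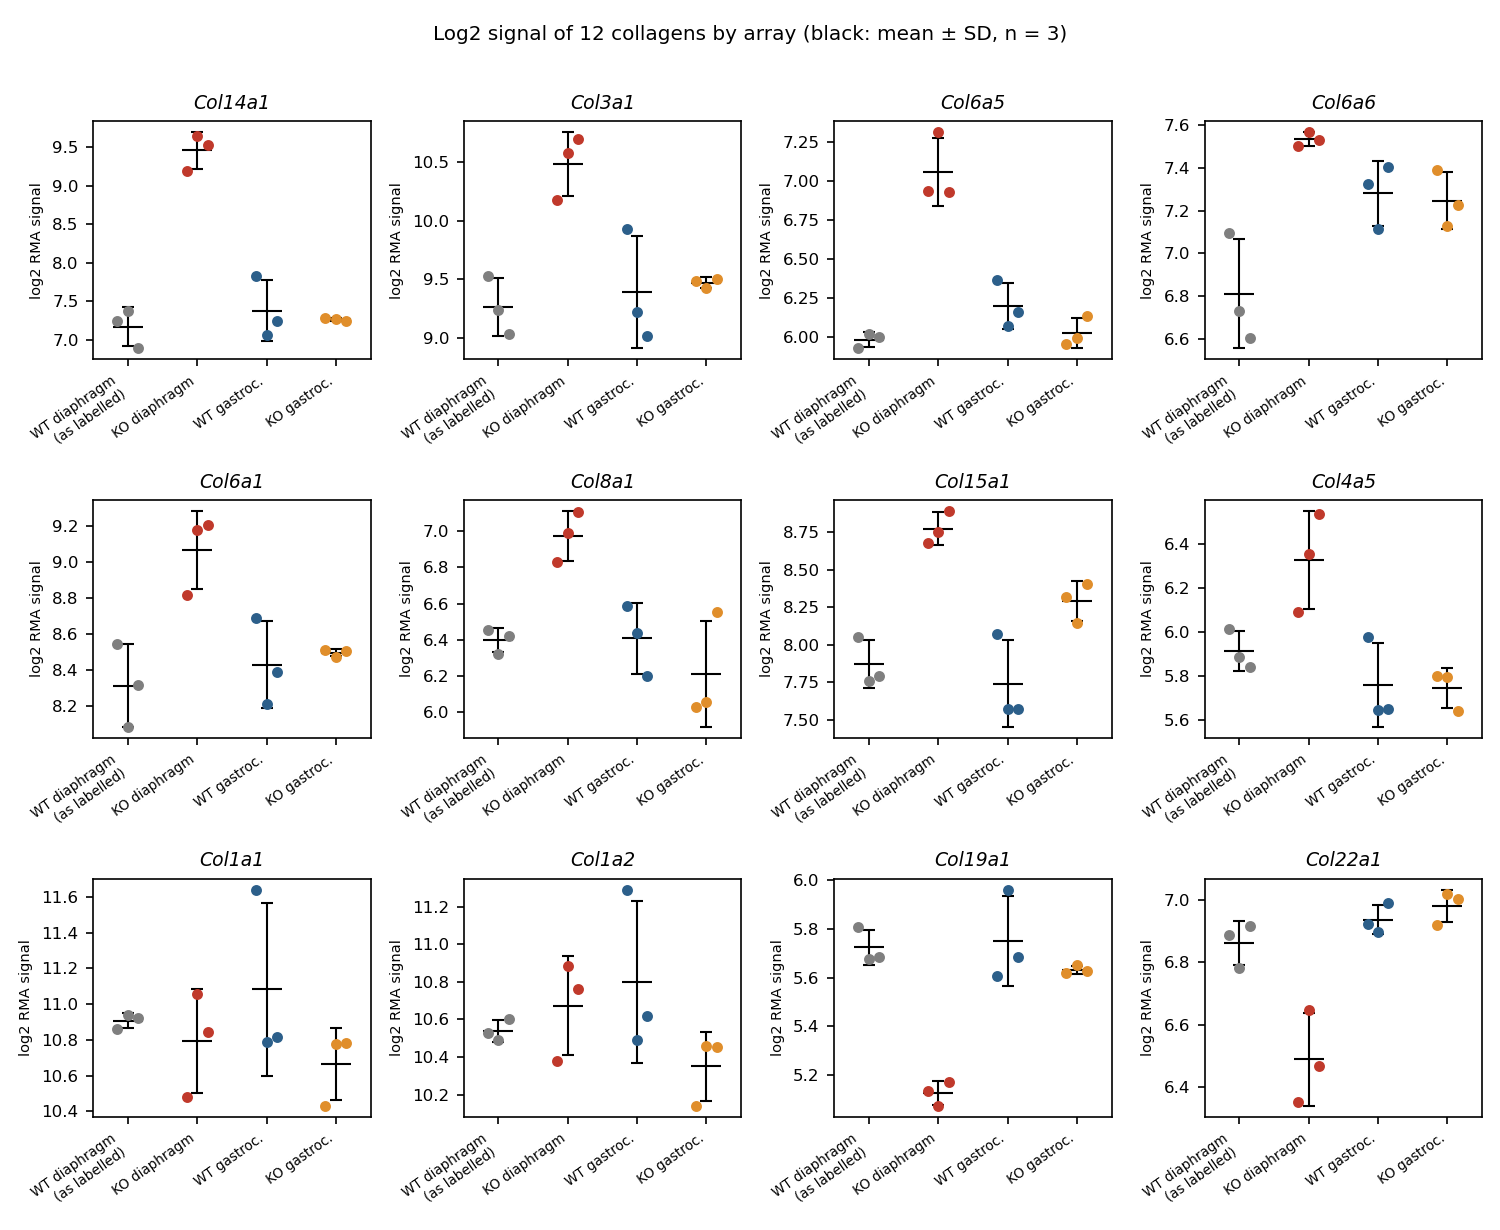
Log2 RMA signal (vertical axes) of 12 collagens on the 3 arrays of each group (horizontal axes, by label); each point is an array, in replicate order, and marks with bars give the mean and SD. For *Col14a1* the KO diaphragm arrays sit between 9.19 and 9.65 and all others between 6.89 and 7.83, while for *Col1a1* the KO diaphragm arrays, from 10.48 to 11.06, span values of each other group.

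Type VI collagen, the beaded filament next to the muscle basement membrane, had 4 of its 6 chains rise in KO diaphragm when set against labelled WT diaphragm, and none fall, with a median of 0.60. The risen chains are 66.7%, where 16.3% of all genes were called higher and 11.2% lower. *Col6a1* was at 8.81, 9.17 and 9.21 in KO diaphragm, at 8.54, 8.08 and 8.31 on the labelled WT diaphragm arrays, at 8.69, 8.21 and 8.39 in WT gastrocnemius and at 8.51, 8.47 and 8.51 in KO gastrocnemius. The KO diaphragm arrays did not overlap with any other group. *Col6a1* rose by 0.75 (standard error 0.14, adjusted p = 0.00119) and *Col6a2* by 0.47 (adjusted p = 0.0277), the latter not called without replicate 2 or 3 of either group (adjusted p = 0.0581 to 0.104). *Col6a3*, whose chain joins the other two in the classic filament, was at 0.03 (95% confidence interval -0.36 to 0.42, adjusted p = 0.915).

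The value of *Col6a3* minus *Col6a1* within an array was -0.70 ± 0.097 (SD, n = 3) in KO diaphragm and 0.02 ± 0.18, 0.03 ± 0.11 and -0.08 ± 0.072 on the labelled WT diaphragm arrays, in WT and in KO gastrocnemius. The KO diaphragm values, from -0.78 to -0.59, did not overlap with the others, which ran from -0.16 to 0.19. Against KO gastrocnemius *Col6a1* was higher by 0.57 (adjusted p = 0.00754), *Col6a2* at 0.36 (adjusted p = 0.0887) and *Col6a3* at -0.04 (adjusted p = 0.888). Of all 6 type VI chains 2 were called higher there (33.3%, against 17.7% of all genes) and none lower, with a median of 0.32.

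*Col6a5* and *Col6a6* encode chains that can take the place of the *Col6a3* chain, and they are neighbours on the chromosome, with *Col6a4* beside *Col6a5*. *Col6a5* was at 6.93, 7.31 and 6.93 in KO diaphragm, between 5.93 and 6.02 on the labelled WT diaphragm arrays, at 6.36, 6.07 and 6.16 in WT gastrocnemius and at 5.95, 5.99 and 6.14 in KO gastrocnemius. KO diaphragm stood clear of the other groups by more than the range within any of them. It rose by 1.07 (2.10-fold, standard error 0.11, adjusted p = 1.01e-05) and was higher by 1.03 than in KO gastrocnemius (adjusted p = 1.28e-05).

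The second probe set of *Col6a5* showed a larger gap, with group means of 4.48 on the labelled WT diaphragm arrays, 7.06 in KO diaphragm, 4.50 in WT and 4.63 in KO gastrocnemius. *Col6a6* rose by 0.72 (standard error 0.12, adjusted p = 0.000559), from 7.10, 6.73 and 6.60 to 7.50, 7.57 and 7.53, and its second probe set went from 6.25 to 7.32. In gastrocnemius *Col6a6* was at 7.32, 7.11 and 7.40 in WT and 7.39, 7.13 and 7.22 in KO mice. KO diaphragm minus KO gastrocnemius was 0.29 for *Col6a6*, which was not called (adjusted p = 0.102).

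**Figure D4:**
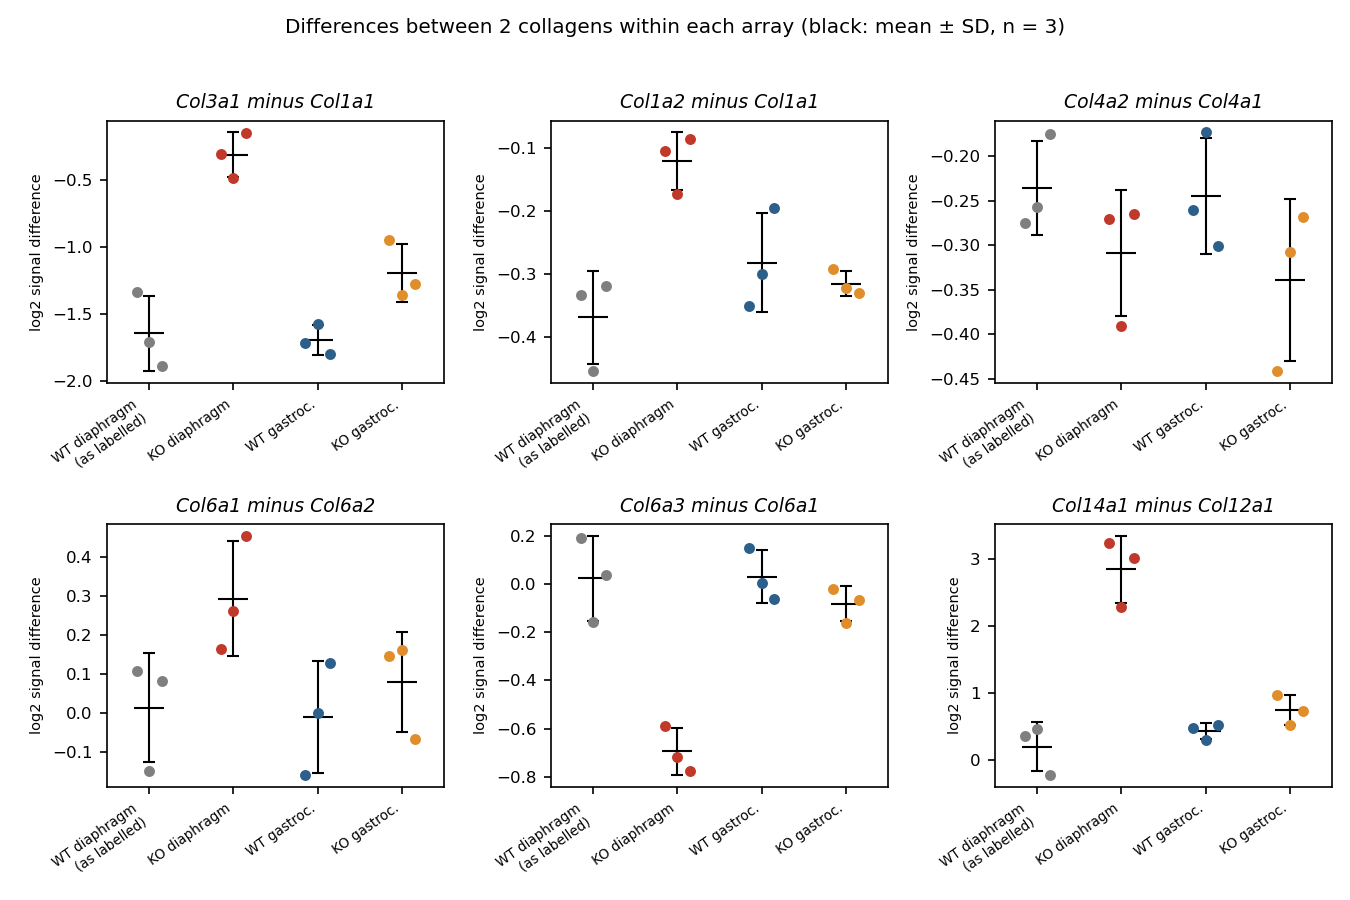
Log2 signal of 1 collagen minus that of another on the same array (vertical axes) for 6 pairs, by group (horizontal axes); each point is an array, and marks with bars give the mean and SD. *Col3a1* minus *Col1a1* and *Col6a3* minus *Col6a1* shift in KO diaphragm, to means of -0.31 and -0.70, whereas *Col4a2* minus *Col4a1* stays between -0.44 and -0.17 on all 12 arrays. *Col3a1* minus *Col1a1* is also higher in KO gastrocnemius, at a mean of -1.19, than in WT gastrocnemius, at -1.69.

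The largest difference of any collagen was that of *Col14a1*, which encodes type XIV collagen, a protein of fibril surfaces that is made by fibroblasts of muscle sheaths, tendon and skin. It was at 9.19, 9.65 and 9.53 in KO diaphragm, at 7.24, 7.37 and 6.89 on the labelled WT diaphragm arrays, at 7.83, 7.06 and 7.24 in WT gastrocnemius and at 7.28, 7.26 and 7.24 in KO gastrocnemius. The lowest KO diaphragm array was thus above the highest of the other 9 by more than the spread within any group. *Col14a1* rose by 2.29 against the arrays labelled WT diaphragm (4.88-fold, standard error 0.18, adjusted p = 5.35e-07) and was higher by 2.19 than in KO gastrocnemius (4.57-fold, adjusted p = 7.13e-07). Leaving out any 1 array gave 2.15 to 2.42 in the first comparison, called each time.

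*Col12a1*, its closest relative, showed no such gap: it was at 5.96, 7.36 and 6.52 in KO diaphragm and at 6.89, 6.91 and 7.10 on the labelled WT diaphragm arrays. *Col14a1* minus *Col12a1* within an array was 2.84 ± 0.50 (SD, n = 3) in KO diaphragm, against 0.20 ± 0.37, 0.43 ± 0.12 and 0.74 ± 0.22 on the labelled WT diaphragm arrays, in WT and in KO gastrocnemius. The 3 KO diaphragm arrays also differed in tendon markers, whose summed linear signal was 889, 1966 and 1651 in the same replicate order. The part of tendon tissue in the *Col12a1* values was not tested.

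Of the 9 collagens of fibril surfaces and related interrupted helices, *Col14a1* alone was called higher, and *Col19a1* and *Col22a1* were called lower in both comparisons of KO diaphragm. These are 11.1% and 22.2% of the 9. Of all genes 16.3% and 11.2% were called so against the arrays labelled WT diaphragm, and 17.7% and 11.2% against KO gastrocnemius. *Col19a1* was at 5.14, 5.07 and 5.17 in KO diaphragm and between 5.61 and 5.96 on the other 9 arrays, and it fell by 0.60 against the arrays labelled WT diaphragm (standard error 0.097, adjusted p = 0.000361). *Col22a1*, which marks the junction of muscle and tendon, was at 6.35, 6.65 and 6.47 in KO diaphragm and between 6.78 and 7.02 on the other 9. It fell by 0.37 (standard error 0.092, adjusted p = 0.00715). Against KO gastrocnemius the values were -0.50 for *Col19a1* (adjusted p = 0.00121) and -0.49 for *Col22a1* (adjusted p = 0.000955).

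*Col8a1*, a short chain that forms sheets under endothelium and mesothelium, was at 6.83, 6.99 and 7.10 in KO diaphragm and between 6.03 and 6.59 on the other 9 arrays. It rose by 0.58 (standard error 0.14, adjusted p = 0.00643) and was higher by 0.76 than in KO gastrocnemius (adjusted p = 0.000815). *Col7a1*, the anchoring fibril of epithelia, fell by 0.33 against the arrays labelled WT diaphragm (adjusted p = 0.00927), *Col26a1*, a little-studied collagen, by 0.25 (adjusted p = 0.0398, called in 4 of 12 fits with 1 array left out) and *Col10a1*, known from growing cartilage, by 0.36 (adjusted p = 0.0305). The call of *Col10a1* was lost when either of the arrays labelled WT diaphragm replicates 2 and 3 or of KO diaphragm replicates 2 and 3 was left out. Its signal was low, with group means of 4.83 in KO diaphragm to 5.20 on the labelled WT diaphragm arrays, below the median gene at 6.11. None of *Col7a1*, *Col26a1* and *Col10a1* was called between KO diaphragm and KO gastrocnemius. Over the 25 other collagens the median was -0.07 in the first comparison, with 6 higher and 5 lower, and 0.01 in the second, with 4 higher and 2 lower. These are 24% and 20%, and 16% and 8%, where 16.3% and 11.2%, and 17.7% and 11.2%, of all genes were called.

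The interaction tests whether KO minus WT has the same size under both muscle labels, and all 12 arrays take part in it. For 7 collagens KO minus WT was more positive under the diaphragm label, or 15.9%, where 8.76% of all genes were called so: *Col14a1* (2.40, adjusted p = 2.54e-05), *Col6a5* (1.25), *Col3a1* (1.14), *Col8a1* (0.77), *Col6a6* (0.76), *Col6a1* (0.69) and *Col18a1* (0.45). After median centring 5 were called, *Col6a1* (0.55, adjusted p = 0.0611) and *Col18a1* (0.32, adjusted p = 0.0798) being lost, and *Col18a1* was lost after quantile normalization too (0.35, adjusted p = 0.0525). *Col18a1* had differences of opposite sign, -0.25 in gastrocnemius and 0.19 in diaphragm, neither of them called. For *Col19a1* (-0.48, adjusted p = 0.0298) and *Col22a1* (-0.42, adjusted p = 0.0434) it was lower, or 4.55% of the collagens against 6.07% of all genes. All 8 basement membrane collagens were positive, with a median of 0.29, but 5 of 8 were after median centring. Of all genes 50.3% were negative in the interaction, and 67.4% after median centring. Since the arrays labelled WT diaphragm enter it, this contrast too cannot tell genotype from muscle.

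Between the arrays labelled WT diaphragm and WT gastrocnemius, limma called 0 collagens, where 0.296% of all genes were called higher and 0.166% lower. Before adjustment, with p under 0.05, *Col10a1* was higher (2.27% of the collagens, against 8.48% of all genes) and *Col6a6*, *Col13a1* and *Col23a1* were lower (6.82%, against 4.45%). The methods' t-test found 0 higher and 2 lower at that threshold, and 0 after adjustment, and its share over all genes was not counted. By sign 32 of 44 were negative (72.7%, against 44.6% of all genes), with a median of -0.08 against 0.02. Without WT gastrocnemius replicate 1, 19 of 44 were negative (43.2%, against 42.4% of all genes), with a median of 0.02 against 0.03. This comparison shares the WT gastrocnemius arrays with that of KO and WT gastrocnemius.

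Some of the genes that make and process collagen were also called in KO diaphragm. Of 18 measured genes of chain modification and folding, 4 were higher and 1 lower than on the labelled WT diaphragm arrays, with a median of 0.10, and 6 were higher and 1 lower than in KO gastrocnemius, with a median of 0.16. These are 22.2% and 5.56%, and 33.3% and 5.56%, of the list, where 16.3% and 11.2%, and 17.7% and 11.2%, of all genes were called, so that the first shares lay near or below the background. *Plod2*, a lysyl hydroxylase of the crosslinking ends, rose by 1.00 (adjusted p = 2.05e-05), *Crtap*, of the prolyl 3-hydroxylase complex, by 0.93, and *Mia3*, which loads collagen into transport carriers, fell by 0.82. Of 11 genes of propeptide processing and crosslinking, 4 were higher and 1 lower in the first comparison and 4 higher in the second, with medians of 0.12 and 0.34, the higher ones being 36.4% of the list both times. *Tll1*, a propeptide protease, rose by 1.31, *Loxl1*, an enzyme of the lysyl oxidase family, by 0.76 and *Pcolce*, an enhancer of propeptide cleavage, by 0.64.

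The small leucine-rich proteoglycans, which coat collagen fibrils, had the largest share of called genes among these 7 lists: 7 of 10 rose against the arrays labelled WT diaphragm and 0 fell, with a median of 0.72, and 8 of 10 were higher than in KO gastrocnemius, with a median of 0.81, where 16.3% and 17.7% of all genes were called higher. *Bgn* (biglycan) rose by 1.28, *Lum* (lumican) by 1.46 and *Podn* (podocan) by 0.82. Of 14 laminins, nidogens and other partners of type IV collagen, 4 and 5 were higher in these comparisons and none lower, which are 28.6% and 35.7% of the list, with medians of 0.18 and 0.23. *Nid2* rose by 1.05, *Lama4* by 0.84 and *Lamb1* by 0.68.

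Of 9 collagen receptors, 3 rose against the arrays labelled WT diaphragm, namely *Itga1*, an integrin chain that binds collagen (0.77), *Ddr2*, a receptor kinase for fibrillar collagen (0.43), and *Lair1*, an inhibitory receptor of immune cells (0.40), and the median was 0.12. Against KO gastrocnemius 2 were higher, with a median of 0.19. The shares called higher were 33.3% and 22.2%, beside the same 16.3% and 17.7% of all genes. Of 12 genes of collagen breakdown, 3 were higher and 1 lower in the first comparison and 5 higher in the second (25% and 41.7% higher), with medians of 0.21 and 0.34. *Mmp14*, a membrane-bound collagenase, rose by 0.78 and *Mmp19* by 0.73, and the inhibitor *Timp4* fell by 1.03. Of 11 TGF-beta ligands and response genes, 2 were higher (*Tgfb1* by 1.02 and *Fn1*, fibronectin, by 1.04) and *Tnc*, tenascin C, fell by 0.63, and 6 were higher in the second comparison, with medians of 0.23 and 0.47. The first of these counts, 18.2% of the list, lay near the background of 16.3%, and the second was 54.5%.

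Of the genes in these 7 lists, 0 were called by limma in KO minus WT gastrocnemius. Taking p under 0.05 without adjustment, 2 of the 18 modification genes were higher and none lower, and 0 and 3 of the 11 processing genes, 0 and 3 of the 10 proteoglycans, 1 and 1 of the 14 basement membrane partners, 0 and 2 of the 9 receptors, 0 and 4 of the 12 breakdown genes and 0 and 1 of the 11 TGF-beta genes were higher and lower. Of all genes 8.11% were higher and 8.34% lower at this threshold. Their medians lay between -0.29 and -0.02. Without WT gastrocnemius replicate 1, limma again called 0, and the counts before adjustment were 2 and 0, 0 and 2, 0 and 0, 2 and 1, 0 and 1, 1 and 0, and 0 and 1 in the same order of lists, where 6.63% of all genes were higher and 5.46% lower. The medians then lay between -0.22 and 0.05, being positive for chain modification, propeptide processing and basement membrane partners.

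Markers of several cell types were also called in KO diaphragm, and their part in the collagen values was not tested. Of 9 mesothelial markers 9 were higher against the arrays labelled WT diaphragm and 9 against KO gastrocnemius, with a summed linear signal of 2108 to 3798 in KO diaphragm, 390 to 399 on the labelled WT diaphragm arrays, 397 to 466 in WT gastrocnemius and 359 to 366 in KO gastrocnemius. Of 11 fibroblast markers, 6 and 8 were higher in these comparisons and none was lower, with sums of 6323 to 7965, 4685 to 5514, 5161 to 6647 and 4748 to 5088 in the same order of groups. *Fbln1*, fibulin 1, rose by 1.81, *Cd34* by 1.02 and *Dpt*, dermatopontin, by 0.92. Of 8 endothelial markers, 7 and 8 were higher, with sums of 3832 to 4540, 2136 to 2566, 1982 to 2199 and 2170 to 2316. The shares called higher were 100% both times (mesothelial), 54.5% and 72.7% (fibroblast), and 87.5% and 100% (endothelial). Of all genes 16.3% and 17.7% were called higher.

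Tendon markers were called in both directions: of 7, *Egr1*, an early response gene, was higher and *Thbs4* and *Angptl7* were lower in the first comparison, and limma called none against KO gastrocnemius, where before adjustment 1 was lower (p under 0.05). Their sums were 889 to 1966 in KO diaphragm, 2222 to 2768 on the labelled WT diaphragm arrays, 1927 to 2928 in WT gastrocnemius and 1334 to 1735 in KO gastrocnemius, so that in gastrocnemius too the KO arrays were below the WT arrays. In that comparison *Egr1* was the 1 tendon gene called, and it was higher. Of 10 cartilage markers 1 was higher in the first comparison (*Cnmd*, chondromodulin) and 3 in the second, with sums of 403 to 1063 in KO diaphragm, 671 to 1003 on the labelled WT diaphragm arrays and 526 to 923 over gastrocnemius. In the first comparison 14.3% of the tendon list was higher and 28.6% lower, and 10% of the cartilage list was higher. Of all genes 16.3% were higher and 11.2% lower, so that the higher shares lay below the background. In the second comparison 30% of the cartilage list and 17.7% of all genes were higher.

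Of 8 smooth muscle and pericyte markers, 1 was higher and 4 lower against the arrays labelled WT diaphragm, and 2 higher and none lower against KO gastrocnemius, with sums of 3028 to 3561 in KO diaphragm, 3484 to 3934 on the labelled WT diaphragm arrays and 2506 to 2907 over gastrocnemius. The first counts are 12.5% higher and 50% lower, and the second is 25% higher. Of all genes 16.3% and 11.2% were called higher and lower in the first comparison, and 17.7% and 11.2% in the second. None of the 4 measured Schwann cell markers was called in either comparison (before adjustment, with p under 0.05, 2 and 0 were lower), with sums of 224 to 287 over all arrays. Skeletal muscle markers were bright everywhere, *Acta1*, the muscle actin, between 13.84 and 13.92 as group means, and their sums were 64725 to 66901 in KO diaphragm and 71229 to 78362 over the other 9 arrays. Of these 8 genes, 2 were higher and 3 lower in KO diaphragm in each comparison (25% and 37.5%), among them *Myh4*, the myosin heavy chain of the fastest fibers, which fell by 4.61 and was at -4.68. Of 10 hindlimb position genes, 8 and 9 were lower (80% and 90%) and none higher, with sums of 451 to 496 in KO diaphragm and 1213 to 1391 over the other 9 arrays. The RMA scale has no zero and no detection calls were used, so that no marker can be said to be absent.

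**Figure D5:**
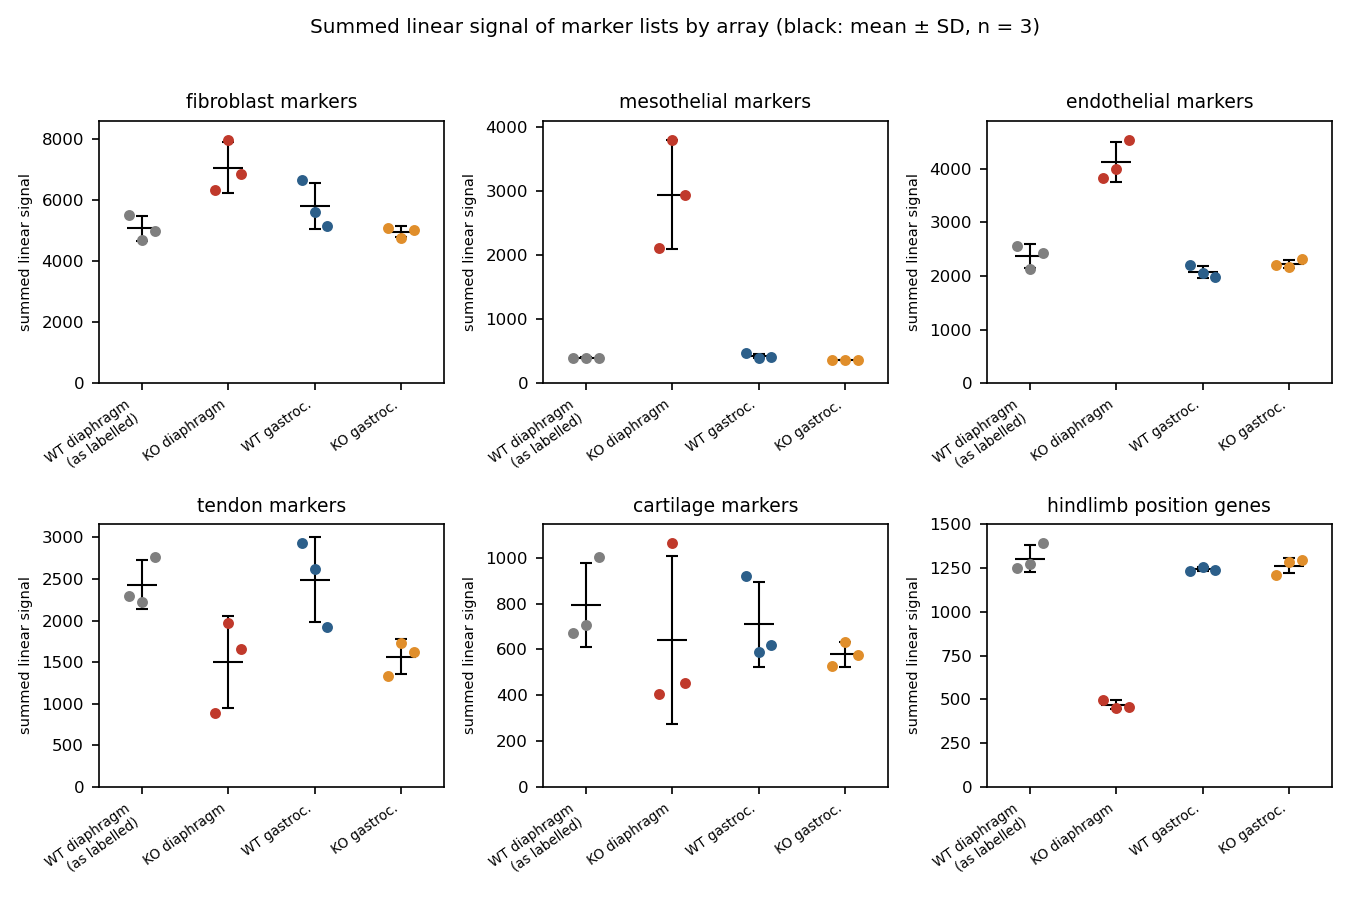
Summed linear signal of 6 marker lists (vertical axes, from 0) on the 3 arrays of each group (horizontal axes, by label); each point is an array, and marks with bars give the mean and SD. Mesothelial, endothelial and hindlimb lists separate KO diaphragm from the other 9 arrays, and the fibroblast list of WT gastrocnemius replicate 1, at 6647, lies within the KO diaphragm range of 6323 to 7965.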

How the data were processed

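Total RNA (100 ng per array) of 12 muscle samples was hybridised to Affymetrix mouse Gene 1.0 ST arrays. The deposited values are log2 signals per transcript, which the authors made with RMA sketch in Affymetrix Expression Console (version not stated). They ranged from 1.65 to 14.4, no 2 arrays were identical, and array data have no read depth. Of 35556 probe sets, 21789 had 1 gene symbol, 1621 several, and 12146 were unnamed in the annotation used; the brightest of each gene was kept (999 genes had several). Groups were taken from the labels and fitted in R 4.3.3 with limma 3.58.1 (4 group means, 8 residual and 6.18 prior degrees of freedom, Benjamini-Hochberg adjusted p under 0.05), after the model was tested on simulated data. Named collagens were the main muscle chains, the 6 highest and 6 lowest called per comparison, and those of counts of 5 or fewer; the other called collagens, *Col12a1* and values of *Col4a6* and *Col26a1* were added after their values were seen. The other lists name up to 3 called genes. Members and lists were chosen with earlier results of these data known. Promoter windows came from a RefSeq table (GRCm38.p6) and were at hand for 35 of the 44 collagens; no probe coordinates were used. Alternatives covered scaling, filtering, probe set choice, the replicate block (statmod 1.5.0), the methods' t-test and arrays left out; signs with single arrays left out and under other scalings, and lists without WT gastrocnemius replicate 1, were added after the data had been seen.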

Additional observations from a re-analysis of the deposited data

Results flagged for a closer look

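The change between WT and KO, by label, differed between diaphragm and gastrocnemius for 9 collagens by limma's interaction test. KO minus WT was more positive under the diaphragm label for *Col14a1* by 2.40 (adjusted p = 2.54e-05), with changes of 2.29 there and -0.11 in gastrocnemius, for *Col6a5* by 1.25 (adjusted p = 0.000155), for *Col3a1* by 1.14 (adjusted p = 0.0135), for *Col8a1* by 0.77 (adjusted p = 0.0157), for *Col6a6* by 0.76 (adjusted p = 0.00897), for *Col6a1* by 0.69 (adjusted p = 0.0338) and for *Col18a1* by 0.45 (adjusted p = 0.0207), at 0.19 in diaphragm and -0.25 in gastrocnemius. It was more negative for *Col19a1* (-0.48, adjusted p = 0.0298), which moved by -0.60 in diaphragm and -0.12 in gastrocnemius, and for *Col22a1* (-0.42, adjusted p = 0.0434), at -0.37 and 0.04. With 1 array left out at a time, *Col14a1*, *Col6a5*, *Col3a1*, *Col8a1* and *Col6a6* were called in 12 of 12 fits, *Col18a1* in 10, *Col19a1* in 5, *Col6a1* in 3 and *Col22a1* in 2. All 9 rest on the arrays labelled WT diaphragm, whose position genes are those of hindlimb muscle, so that genotype and muscle cannot be told apart here. No group had the 4 or more arrays that a test for single outlying arrays needs.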

How the results depend on the processing

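No called collagen changed direction under the alternatives, whereas uncalled ones did, such as *Col3a1* in gastrocnemius, at -0.10 to 0.35 with arrays left out. The counts below moved by over 1.5 times, and the cause was not tested. In KO minus WT gastrocnemius, 0 collagens were higher, 1 with median centring and 0 to 1 with arrays left out, the 1 being *Col15a1* without WT gastrocnemius replicate 1. In KO minus labelled WT diaphragm, the 10 higher became 5 by the methods' t-test and 7 to 12 with arrays left out. The 7 lower became 4 in a fit of only these 2 groups, 12 with median centring, 13 with quantile normalization, 1 by the t-test and 3 to 9 with arrays left out, the 3 being without the array labelled WT diaphragm replicate 3 or without KO diaphragm replicate 3, with 4 without KO diaphragm replicate 1. In the interaction, the 2 lower became 4 with median centring, 1 over genes at or above the median signal and 0 to 2 with arrays left out, 0 without WT gastrocnemius replicate 3 or any 1 KO gastrocnemius array. In KO diaphragm minus KO gastrocnemius, the 9 higher became 14 in a fit of only these 2 groups, and the 3 lower became 11 with median centring and 10 with quantile normalization; without the arrays labelled WT diaphragm in the model, 12 were higher and 4 lower. Median centring moved the median of all genes to -0.12 in KO minus labelled WT diaphragm, -0.13 in the interaction and -0.11 in KO diaphragm minus KO gastrocnemius.

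Replicate numbers are shared between groups, but no pairing by number was visible. Of 18 same-number pairs, 2 had deviations that correlated above 0.1, with a range of -0.10 to 0.16. Pairs of unlike number ranged from -0.23 to 0.17, and the medians were -0.006 for like and -0.005 for unlike numbers. Such correlations cannot show whether 2 arrays came from 1 mouse. With the replicate block as a fixed effect, 1 collagen was lower in the interaction in place of 2 (*Col22a1* at adjusted p = 0.0601), and 5 in place of 7 in KO minus labelled WT diaphragm (*Col24a1* at 0.0701 and *Col26a1* at 0.0620); the other counts were the same, and as a random effect the block changed none. Of 763 values of single collagens under alternatives other than arrays left out, 28 lost and 10 gained a call, and with arrays left out 66 and 10 of 1032.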
